A study of Homo sapiens with 12 samples.

Results

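Homologous recombination, the Fanconi pathway and mismatch repair are the routes by which a cell mends DNA around replication. The genes described here are 41 listed symbols of these routes and of the kinases that sense replication trouble, found by exact match in the first column of the 12 count tables, among 43236 gene symbols in all. By role they are 13 recombination mediators and their helpers, 7 genes of end recognition, resection and unwinding, 11 Fanconi genes, 2 mismatch repair genes, 5 checkpoint kinases or their partners, and 3 genes of break ligation and alternative end joining. The list was drawn up by function, with earlier results of these data known, and 40 of its 41 genes passed the filter on low counts.

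The samples were MNNG/HOS cells (HOS-MNNG in the labels), a human osteosarcoma line made from HOS cells by chemical transformation. One group of 3 libraries had DMSO for 6 h, another had NXP800 for 6 h, and DMSO 24 h and NXP800 24 h completed the 4 groups, with 3 libraries in each. NXP800 is a small molecule under study for stress pathway activation in tumor cells, used here at 300 nM, and DMSO is its solvent, given to the controls. All cells were of this single line with no genetic change between groups, and poly(A) RNA was sequenced from a strand-specific library. The labels number the replicates, and the methods describe the study's experiments in general as independent repeats without saying how these libraries were grown, so the p-values measure the spread between these libraries.

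Counts on genes lay between 30810614 and 31947656 per library, so for most of these genes the spread between replicates and not counting error set the precision. Reads on no annotated gene made up 6.66 to 8.14% of the reads at 6 h and 2.73 to 3.67% at 24 h, and reads aligned to several places 1.86 to 1.99% and 2.96 to 3.37%. Within 24 h the latter share was 2.96 to 3.09% with DMSO and 3.25 to 3.37% with NXP800, and its part in the results was not tested. Each NXP800 group was compared with the DMSO group of its own time. Of the markers of the osteoblast lineage, RUNX2, COL1A1 and SPARC were expressed, while SP7, ALPL and COL1A2 had means of at most 0.302 CPM (a gene's counts relative to the TMM-scaled total of its library) in any group. The blood, muscle and fat markers PTPRC, CD3E, MS4A1, MYOD1, DES and ADIPOQ lay at or near 0, and PECAM1, VWF and RBFOX3 had means of at most 0.751 CPM. KRT18 and CD68, markers of epithelium and macrophages, were well expressed, at means of 736 and 67.4 CPM in DMSO 6 h, and EPCAM had 6.00. The 12 markers of other cell types summed to 746 to 865 CPM with DMSO and 688 to 771 with NXP800 at 6 h, and to 949 to 997 and 711 to 881 at 24 h, with KRT18 giving most of the sum. At 24 h KRT18 fell from a mean of 892 to 663 CPM (adjusted p = 0.000423) and VWF from 0.552 to 0.128 (adjusted p = 0.000295), while CD68 rose from 76.3 to 142 CPM (log2 fold change 0.90, adjusted p = 1.07e-05) and EPCAM from 5.78 to 10.1 (0.81, adjusted p = 4.85e-06). The part of these markers in the results was not tested.

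Homologous recombination repairs a double-strand break by copying an undamaged sister. The MRN complex and its partners find and trim the ends, BRCA1 with BARD1 and PALB2 brings in BRCA2, and mediators and motor proteins then help the broken strand to pair with the sister. The Fanconi pathway deals with crosslinks between the strands. Its core complex and the conjugating enzyme UBE2T attach ubiquitin to the FANCD2 and FANCI pair, and repair then passes to nucleases and recombination. Mismatch repair corrects replication errors, and ATR with CHEK1, and ATM with CHEK2, signal stalled forks and breaks to the cell cycle. Many of these genes are known to be transcribed most in S phase and G2, under E2F factors and, for some, factors that bind CCAAT boxes and the cell cycle homology region (CHR).

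The starts of 5 of the genes are shown because their values recur below. RAD54L, EXO1, FANCD2 and PARP1 had the largest falls among the 40 genes after 24 h of NXP800, and RAD50, chosen after the values were seen, had the largest rise. The sequences are from RefSeq on GRCh38.p14, run 5′ to 3′ on the gene's strand from 250 bases before to 50 bases after an annotated start, and carry in capitals each match to an E2F word (TTTCCCGC, TTTCGCGC, TTTGCCGC or TTTGGCGC), to CCAAT or to the CHR word TTTGAA, on either strand.
RAD54L: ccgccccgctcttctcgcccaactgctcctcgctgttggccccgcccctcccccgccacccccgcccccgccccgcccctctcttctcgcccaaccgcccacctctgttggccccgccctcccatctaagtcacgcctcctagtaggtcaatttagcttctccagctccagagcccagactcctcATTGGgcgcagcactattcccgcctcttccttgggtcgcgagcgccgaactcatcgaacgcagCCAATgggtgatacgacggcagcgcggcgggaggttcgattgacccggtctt
EXO1: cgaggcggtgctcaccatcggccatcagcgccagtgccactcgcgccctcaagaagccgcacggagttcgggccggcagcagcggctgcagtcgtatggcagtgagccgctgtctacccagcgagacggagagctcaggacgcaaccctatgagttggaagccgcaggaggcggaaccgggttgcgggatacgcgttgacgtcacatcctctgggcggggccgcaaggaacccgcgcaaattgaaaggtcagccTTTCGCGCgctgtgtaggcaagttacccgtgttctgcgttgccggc
FANCD2: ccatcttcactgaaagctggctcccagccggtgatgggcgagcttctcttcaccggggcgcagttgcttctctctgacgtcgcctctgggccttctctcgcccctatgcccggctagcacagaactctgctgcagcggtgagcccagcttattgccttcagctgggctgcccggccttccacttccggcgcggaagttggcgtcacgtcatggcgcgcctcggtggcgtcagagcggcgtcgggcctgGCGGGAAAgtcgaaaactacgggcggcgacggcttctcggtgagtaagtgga
PARP1: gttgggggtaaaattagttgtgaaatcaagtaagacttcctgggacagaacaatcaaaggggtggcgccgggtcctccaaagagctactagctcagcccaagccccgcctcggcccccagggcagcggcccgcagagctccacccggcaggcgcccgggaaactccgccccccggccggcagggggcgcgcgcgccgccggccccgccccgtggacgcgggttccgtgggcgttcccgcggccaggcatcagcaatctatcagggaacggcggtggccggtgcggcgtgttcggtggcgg
RAD50: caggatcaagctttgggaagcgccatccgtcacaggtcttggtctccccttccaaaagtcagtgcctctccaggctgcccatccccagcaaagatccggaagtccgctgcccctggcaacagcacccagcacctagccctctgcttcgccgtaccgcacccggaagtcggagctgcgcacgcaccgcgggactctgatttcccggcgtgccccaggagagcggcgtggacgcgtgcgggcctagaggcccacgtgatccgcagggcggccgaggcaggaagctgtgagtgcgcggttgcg

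RAD54L, drawn from chr1:46247438-46247737 on the plus strand, held CCAAT on the minus strand, written ATTGG in the run above with its first base at -65 (the base of the start is +1), and CCAAT on the plus strand at -2. EXO1, from chr1:241847954-241848253 on the plus strand, held TTTCGCGC at +5, and FANCD2, from chr3:10026187-10026486 on the plus strand, held TTTCCCGC on the minus strand at -2. RAD54L and EXO1 each have 2 windows in the table, of which 1 is printed. Neither PARP1, from chr1:226408044-226408343 on the minus strand, nor RAD50, from chr5:132556727-132557026 on the plus strand, held any of these letters, which says nothing of the factors themselves. Of the 41 genes, 37 had a promoter in the RefSeq table, 13 of them with more than 1 window, and those not matched are NBN, WRN, RAD54B and FANCI. An E2F word was found for 7 of the 37 genes (18.9%), against 3.99% of all 27305 genes in the table. The 7 are XRCC2, EXO1, FANCA, FANCC, FANCD2, MSH6 and PMS2. CCAAT was found for 19 of the 37 (51.4% against 39.7% of all genes) and the CHR word for 6 (16.2% against 18.2%). Counted by window, E2F words were in 8 of 53 windows of these genes (15.1%) and in 3.31% of all 35116. These are matches of letters, described without a test.

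After 6 h of NXP800, 16 of the 40 tested genes were lower and 5 were higher at an adjusted p below 0.05 (edgeR's quasi-likelihood test, Benjamini-Hochberg adjustment over all 15979 genes tested), and 19 passed in neither direction. The 5 that rose are PALB2, BRCA2, RAD50, WRN and FANCF. Over all tested genes 27.8% were lower and 25% higher at 6 h, against 40% and 12.5% of these genes. With DESeq2's size factors in place of TMM the 6 h split was 13 lower and 7 higher. The median log2 fold change was -0.13, beside -0.046 over all tested genes. No gene of the 40 changed by over 2-fold at 6 h, where the lowest log2 fold change was RAD54B at -0.81 and the highest PALB2 at 0.55. With the replicate number as a block BRCA1, RBBP8 and XRCC1 also passed as higher at 6 h, and RAD51C, FANCI and ATR as lower.

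By 24 h the balance had moved down. Of the 40 genes, 25 were lower and 3 were higher, and 12 passed in neither direction, with a median log2 fold change of -0.46 beside -0.0033 over all tested genes. The background was 28.6% of all tested genes lower and 27.5% higher, against 62.5% and 7.5% of these genes. RAD50, WRN and FANCF were higher. With the replicate number as a block PALB2 and RAD51D also passed as higher at 24 h, and BRCA2 and MRE11 as lower. The 8 genes lower by over 2-fold are RAD54L, EXO1, FANCD2, PARP1, FANCG, POLQ, UBE2T and CHEK2, and none was higher by over 2-fold. Summed over the 41 genes, the level ranged from 2089 to 2118 CPM in the DMSO 6 h libraries, 1724 to 1797 in NXP800 6 h, 1910 to 1926 in DMSO 24 h and 1255 to 1304 in NXP800 24 h, with no overlap between treatments at either time. In bulk RNA, fewer cells in which a gene is on and less RNA in each cell cannot be told apart.

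The response was then compared between the times by its own contrast, the log2 fold change at 24 h minus that at 6 h. It was lower at 24 h for 18 of the 40 genes and higher for 3 (RAD50, FANCF and PMS2), against 13.8% lower and 12% higher over all tested genes, and its median was -0.36 beside -0.0021. Called at both times were 14 genes lower and 3 higher. A further 11 were lower and called at 24 h but not at 6 h. Called at 6 h but not at 24 h were 2 lower genes (FANCL and PMS2) and 2 higher genes (BRCA2 and PALB2). In this fit 8 were called at neither time, and 0 were called in opposite directions. With the replicate number as a block, BRCA1, BRCA2 and XRCC1 were called higher at 6 h and lower at 24 h. In that fit the adjusted p at 6 h and 24 h was 0.0497 and 0.00161 for BRCA1. For BRCA2 it was 0.000112 and 0.0161, and for XRCC1 0.00901 and 0.000402. Every NXP800 library lay below every DMSO library for 19 genes at 6 h and 25 at 24 h, and above for 7 and 4. Over all tested genes that separation occurred for 32.7% below and 29.3% above at 6 h, and for 30.1% and 29% at 24 h. The plot of fold changes by role shows the 24 h values to the left of the 6 h values for most genes.

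**Figure D1:**
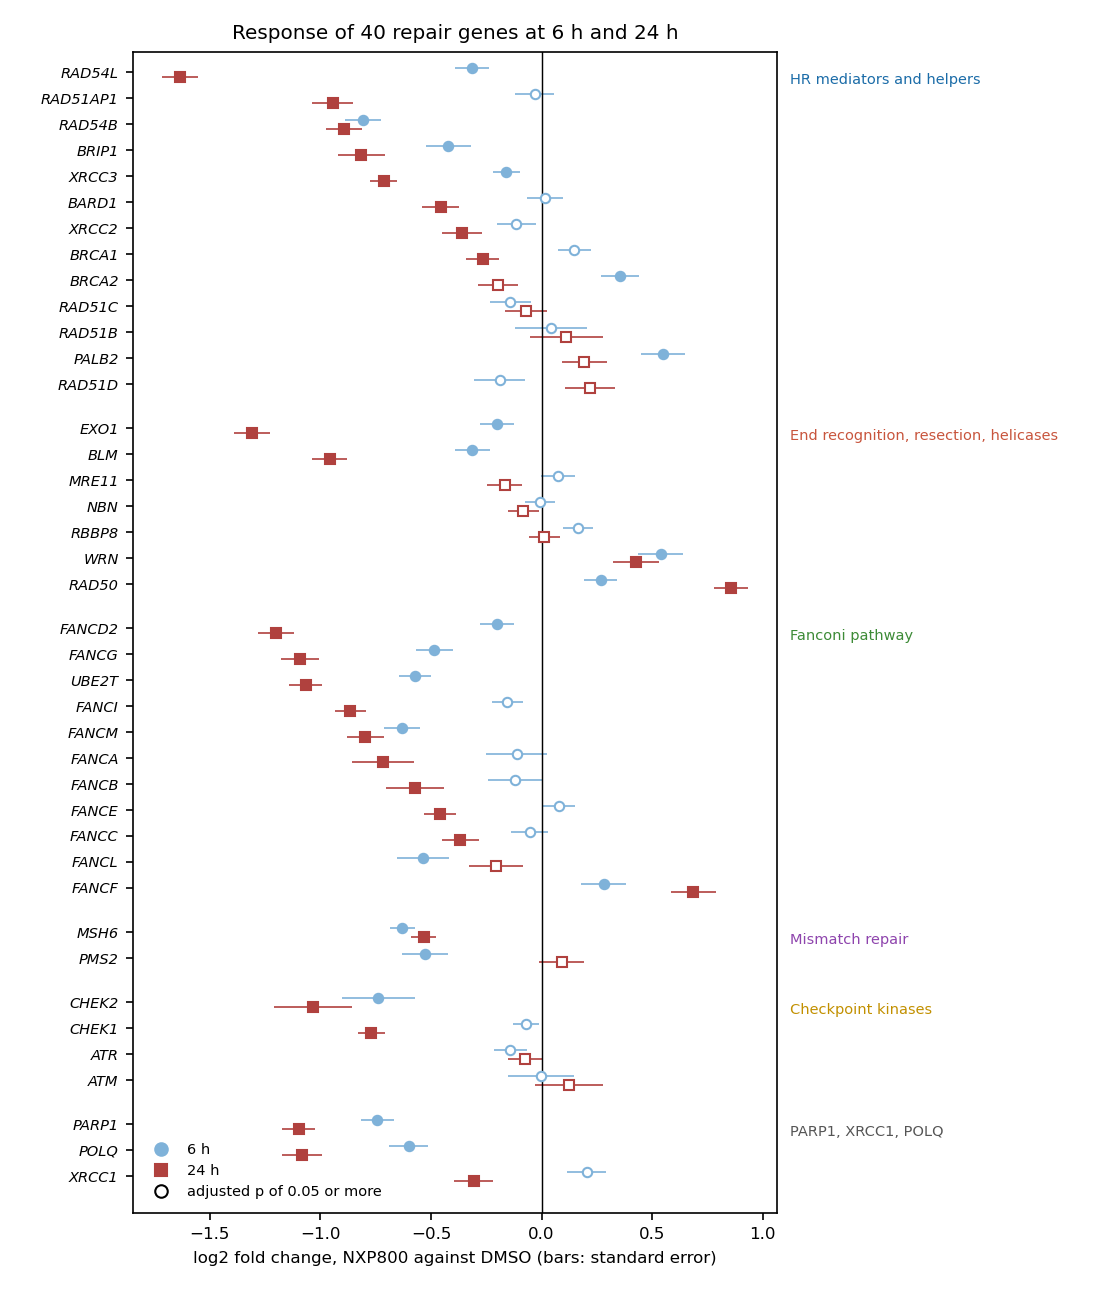
Log2 fold change of NXP800 against DMSO (x axis) for the 40 tested repair genes, grouped by role, at 6 h (blue circles) and 24 h (red squares), with bars of 1 standard error and open symbols where the adjusted p was 0.05 or more. At 24 h 25 genes are filled on the left of 0 and 3 on the right, with RAD54L the lowest at -1.63 and RAD50 the highest at 0.86.

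Among the 13 recombination mediators and helpers, 4 fell and 2 rose at 6 h, and 8 fell and 0 rose at 24 h, with medians of -0.11 and -0.36. In the difference of the responses 6 were lower and 0 higher. Gene positions below are on GRCh38.p14 from its RefSeq annotation.

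RAD54L (chr1:46247688-46278473), a motor protein of strand pairing, had the largest fall of the 40 genes. Its DMSO 6 h libraries, in replicate order, held 29.1, 31.4 and 31.6 CPM and its NXP800 6 h libraries 24.3, 24.5 and 25.2. At 24 h DMSO libraries held 39.8, 45.4 and 39.4 and NXP800 libraries 13.6, 12.4 and 14.1, so that the groups were apart at both times and further apart at 24 h. Its log2 fold change was -0.32 ± 0.077 (SE, as throughout) at 6 h (adjusted p = 0.00268). At 24 h it was -1.63 ± 0.081 (adjusted p = 1.89e-10), as the level fell by 67.8%, and the difference of the responses was -1.32 ± 0.11 (adjusted p = 9.90e-07). In GENCODE 26.2% of its exon bases lie opposite exons of LRRC41. Its relative RAD54B (chr8:94371960-94475115) fell early and stayed low. At 6 h it held 30.3, 31.8 and 33.7 CPM with DMSO and 18.6, 17.3 and 18.8 with NXP800, and at 24 h 28.1, 29.3 and 25.3 and 14.2, 14.7 and 15.6. Its groups did not overlap, with log2 fold changes of -0.81 ± 0.080 (adjusted p = 4.51e-07) and -0.89 ± 0.081 (adjusted p = 1.40e-07), which differed by -0.086 ± 0.11 (adjusted p = 0.624). Of its exon bases 65.5% are shared with FSBP on the same strand, so its reads cannot be wholly told from those of FSBP.

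RAD51AP1 (chr12:4538890-4560047), which aids strand pairing, showed a response at 24 h. DMSO 6 h libraries held 42.4, 44.5 and 41.5 CPM and NXP800 6 h libraries 40.96, 43.8 and 40.96, which overlapped. At 24 h the values were 29.7, 35.3 and 27.2 with DMSO and 16.6, 17.0 and 14.3 with NXP800, all 3 below the lowest control. Its log2 fold change was -0.031 ± 0.089 (adjusted p = 0.792) and, at the later time, -0.95 ± 0.095 (adjusted p = 4.06e-07), and the difference was -0.91 ± 0.13 (adjusted p = 0.000103). BRIP1 (chr17:61679139-61863528), the helicase that binds BRCA1 (chr17:43044295-43170327), held 28.8, 30.2 and 29.8 CPM with DMSO and 20.6, 24.5 and 21.2 with NXP800 at 6 h, and 25.4, 24.8 and 21.4 and 15.4, 13.8 and 11.5 at 24 h. It was lower in every NXP800 library at both times, by -0.42 ± 0.10 (adjusted p = 0.00242) and -0.81 ± 0.11 on the log2 scale (adjusted p = 7.23e-06). The difference of -0.39 ± 0.15 was not called (adjusted p = 0.0605), but was with the replicate number as a block (adjusted p = 0.0033), by DESeq2's Wald test (0.0444), without DMSO 24 h replicate 3 (0.0358) and without NXP800 24 h replicate 1 (0.0225).

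XRCC3 (chr14:103697617-103715451), which forms a complex with RAD51C, was the most abundant mediator per length, at 32.4 CPM per kilobase of canonical transcript in DMSO 6 h. It held 84.0, 80.5 and 85.3 CPM with DMSO and 78.5, 72.2 and 73.1 with NXP800 at 6 h, and 102, 109.6 and 107 and 62.4, 68.6 and 63.2 at 24 h. NXP800 values lay below DMSO values at both times, by a small margin at 6 h. The log2 fold change was -0.16 ± 0.060 (adjusted p = 0.0362) and -0.71 ± 0.061 (adjusted p = 6.29e-08), with a difference of -0.56 ± 0.086 (adjusted p = 0.000206). The 6 h call was lost on leaving out DMSO 6 h replicate 1 or 3, NXP800 6 h replicate 2 or 3 or NXP800 24 h replicate 2 (adjusted p of 0.0725 to 0.130), and under 5 other alternatives. Of its exon bases 34.2% lie opposite KLC1.

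BRCA1 and its partner BARD1 form the ubiquitin ligase that starts recombination at a break. BRCA1 held 64.2, 57.3 and 60.9 CPM with DMSO and 64.9, 72.9 and 64.2 with NXP800 at 6 h, and 58.6, 53.7 and 62.3 and 45.8, 49.2 and 50.2 at 24 h. NXP800 libraries were above all controls at 6 h and below all controls at 24 h. The log2 fold change of 0.15 ± 0.074 at 6 h was not called (adjusted p = 0.103, or 0.0497 with the replicate block and 0.0364 with the 6 h libraries alone), the value at 24 h was -0.27 ± 0.075 (adjusted p = 0.00646, or 0.0672 with scaling by library size only) and the difference was -0.41 ± 0.11 (adjusted p = 0.00873). For BARD1 (chr2:214725646-214809683) the DMSO and NXP800 libraries held 23.5, 26.5 and 25.4 and 23.3, 27.9 and 24.96 CPM at 6 h, and 22.7, 22.5 and 23.4 and 15.6, 17.3 and 17.0 at 24 h. The 6 h groups overlapped and the 24 h groups did not, with 0.015 ± 0.082 (adjusted p = 0.888) and -0.46 ± 0.084 (adjusted p = 0.000230) and a difference of -0.47 ± 0.12 (adjusted p = 0.00773).

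PALB2 and BRCA2 (chr13:32315077-32400268), which act next in that order, were higher at 6 h. PALB2 (chr16:23603165-23641310) held 32.4, 28.4 and 32.0 CPM with DMSO and 44.5, 45.7 and 45.6 with NXP800 at 6 h, and 24.3, 25.5 and 22.7 and 26.4, 33.1 and 23.4 at 24 h, where the groups overlapped. It rose by 46.4% at 6 h (log2 fold change 0.55 ± 0.10, adjusted p = 0.000235) and stood at 0.19 ± 0.10 at 24 h (adjusted p = 0.121). That 24 h value passed with the replicate block (adjusted p = 0.0287), with library size only (0.0458) and without NXP800 24 h replicate 3 (0.30, adjusted p = 0.0149), and it was 0.070 without NXP800 24 h replicate 2 (adjusted p = 0.524). The difference of -0.36 ± 0.14 (adjusted p = 0.0807) passed with the block (0.00593) and without NXP800 24 h replicate 2 (0.00471). BRCA2 held 27.5, 27.2 and 32.2 CPM with DMSO and 35.9, 37.3 and 37.9 with NXP800 at 6 h, and 28.9, 25.4 and 26.6 and 25.4, 24.3 and 20.9 at 24 h. Its NXP800 libraries lay above the controls at 6 h and overlapped them at 24 h. Its log2 fold change was 0.36 ± 0.088 at 6 h (adjusted p = 0.00279) and stood at -0.20 ± 0.090 later (adjusted p = 0.0706, or 0.0161 with the block, 0.0381 without NXP800 24 h replicate 1 and 0.279, at -0.12, without NXP800 24 h replicate 3), and the difference was -0.55 ± 0.13 (adjusted p = 0.00417).

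The other 4 of the group, XRCC2, RAD51B, RAD51C and RAD51D, are related mediators that form complexes with each other. XRCC2 fell at 24 h, from a mean of 23.4 ± 1.1 CPM to 18.2 ± 2.0 (SD, n = 3; log2 fold change -0.36, adjusted p = 0.00302). RAD51B, RAD51C and RAD51D had log2 fold changes of 0.11, -0.071 and 0.22 at 24 h, none called. With the replicate block RAD51C passed at 6 h (-0.14, adjusted p = 0.0440), and RAD51D passed at 24 h (0.22, adjusted p = 0.0457) and in the difference (0.41, adjusted p = 0.0212).

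**Figure D2:**
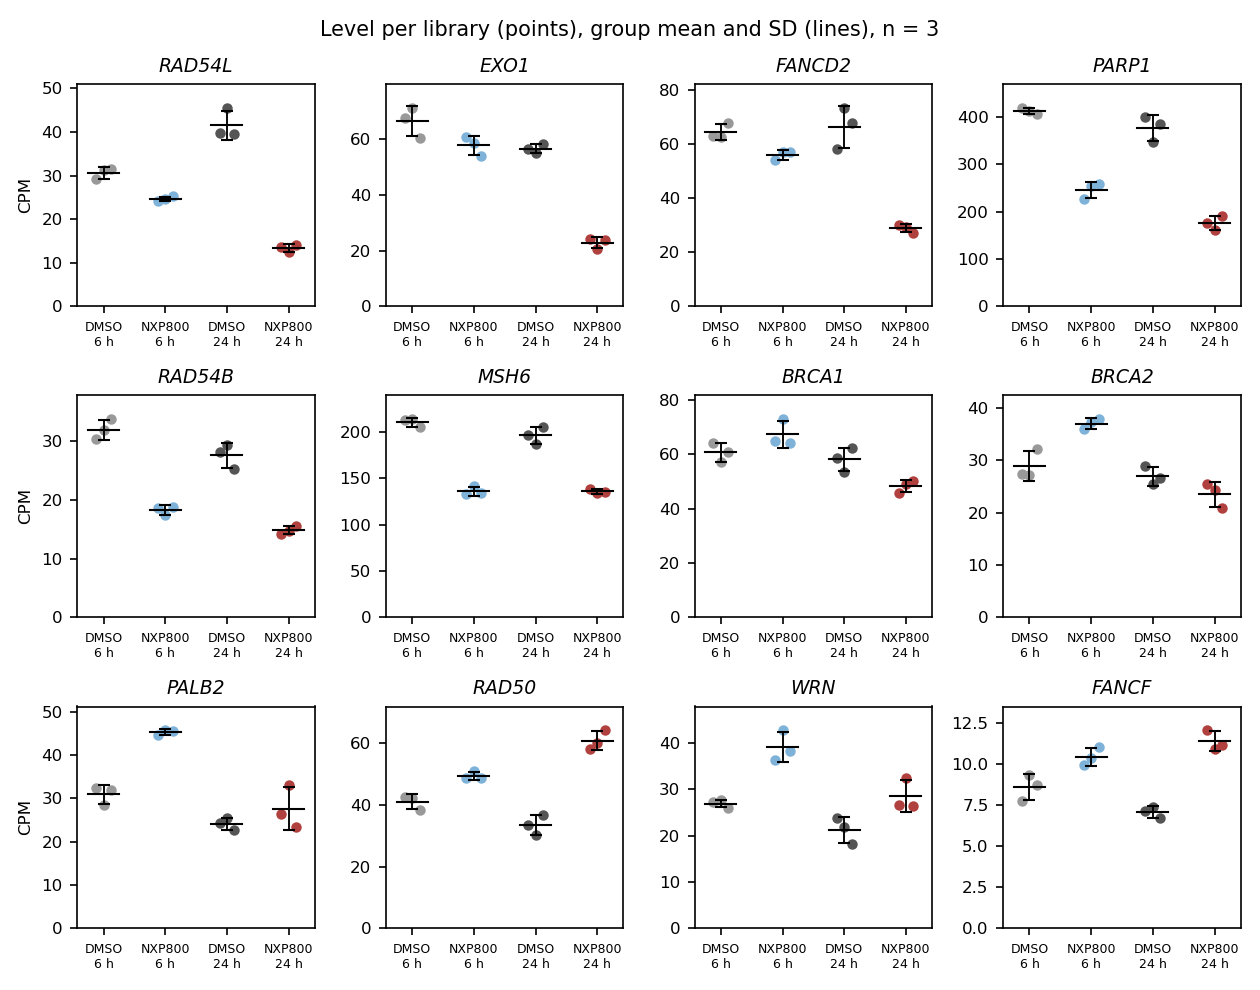
CPM of 12 repair genes (y axis, starting at 0) in each of the 12 libraries, by group (x axis), with a horizontal line at the group mean and a bar of 1 SD (n = 3). The NXP800 24 h libraries of RAD54L sit at 12.4 to 14.1 CPM against 39.4 to 45.4 in their controls, and those of RAD50 at 58.1 to 64.1 against 30.2 to 36.8.

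Of the 7 genes of end recognition, resection and unwinding, 2 were lower and 2 higher at each time, with medians of 0.076 and -0.082. That is 28.6% in each direction, near the 27.8% lower and 25% higher of all tested genes at 6 h and the 28.6% and 27.5% at 24 h. In the difference of the responses 2 were lower and 1 higher.

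EXO1 (chr1:241847986-241889939), the exonuclease that lengthens resected ends and also serves mismatch repair, held 67.8, 71.2 and 60.7 CPM with DMSO and 60.9, 58.8 and 54.0 with NXP800 at 6 h, and 56.6, 55.2 and 58.3 and 24.0, 20.7 and 23.9 at 24 h. The 6 h groups overlapped narrowly, while at 24 h each NXP800 library held less than every control. Its log2 fold change was -0.20 ± 0.076 (adjusted p = 0.0356) and -1.31 ± 0.080 (adjusted p = 1.63e-09), with a difference of -1.11 ± 0.11 (adjusted p = 4.24e-06). The 6 h call was lost without DMSO 6 h replicate 1 or 2 or NXP800 6 h replicate 2 or 3 (adjusted p of 0.0650 to 0.160), and under 4 other alternatives. BLM (chr15:90717346-90816166), the helicase that works with EXO1 and later dissolves joined strands, held 30.9, 30.3 and 28.5 CPM with DMSO and 22.4, 24.5 and 25.4 with NXP800 at 6 h, and 29.0, 28.5 and 30.6 and 14.4, 14.5 and 16.4 at 24 h. It was lower without overlap at both times, by -0.31 ± 0.077 (adjusted p = 0.00288) and -0.96 ± 0.080 (adjusted p = 5.18e-08) on the log2 scale, and the difference was -0.65 ± 0.11 (adjusted p = 0.000535).

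RAD50 (chr5:132556977-132646349), the long coiled-coil subunit that tethers ends in the MRN complex, moved the other way. With DMSO it held 42.6, 42.2 and 38.4 CPM and with NXP800 48.8, 50.8 and 48.6 at 6 h, and at 24 h 33.6, 30.2 and 36.8 and 58.1, 59.9 and 64.1. NXP800 libraries were above the controls at both times, with a rise of 20.3% at 6 h (log2 fold change 0.27 ± 0.075, adjusted p = 0.00697) and of 81.1% at 24 h (0.86 ± 0.076, adjusted p = 1.05e-07), and the response differed between the times by 0.59 ± 0.11 (adjusted p = 0.000815). In GENCODE 91.0% of the exon bases of RAD50 also belong to a longer model on the same strand. Its partners in MRN were not called. MRE11, the nuclease, had means of 24.7 ± 1.0 CPM with DMSO and 22.0 ± 1.9 with NXP800 at 24 h (log2 fold change -0.17, adjusted p = 0.0849, or 0.0232 with the block), and NBN, the subunit that recruits ATM, 87.5 ± 5.4 and 82.7 ± 5.8 (-0.082, adjusted p = 0.323). The difference of the responses for MRE11 was -0.24 (adjusted p = 0.1198, or 0.0291 with the block). RBBP8, also called CtIP, which starts resection with MRN, had log2 fold changes of 0.17 at 6 h (adjusted p = 0.0543, or 0.00997 with the block) and 0.013 at 24 h.

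WRN (chr8:31033810-31176138), a helicase with an exonuclease domain, held 27.2, 27.7 and 26.0 CPM with DMSO and 36.4, 42.8 and 38.3 with NXP800 at 6 h, and 23.8, 21.8 and 18.2 and 26.7, 32.5 and 26.5 at 24 h. Each NXP800 library exceeded each control of its time. It rose by 0.54 ± 0.10 (adjusted p = 0.000303) at 6 h and by 0.43 ± 0.10 (adjusted p = 0.00222) at 24 h on the log2 scale, and the responses differed by -0.11 ± 0.14 (adjusted p = 0.614).

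Of the 11 Fanconi genes 5 (45.5%) fell and 1 (9.09%) rose at 6 h, beside 27.8% and 25% of all tested genes. At 24 h 9 (81.8%) fell and 1 (9.09%) rose, beside 28.6% and 27.5%, and the medians at the 2 times were -0.15 and -0.72. The difference of the responses was lower for 6 (54.6%) and higher for 1 (9.09%), beside 13.8% and 12% of all tested genes.

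FANCD2 and FANCI (chr15:89243979-89317259), the pair that receives ubiquitin, both fell at 24 h. FANCD2 (chr3:10026437-10101932) held 63.0, 62.7 and 67.9 CPM with DMSO and 54.1, 57.2 and 57.1 with NXP800 at 6 h, and 58.2, 73.4 and 68.0 and 30.2, 29.5 and 27.2 at 24 h. Its groups were apart at both times, with log2 fold changes of -0.20 ± 0.078 (adjusted p = 0.0401) and -1.20 ± 0.081 (adjusted p = 4.57e-09), which differed by -0.999 ± 0.11 (adjusted p = 1.19e-05). Leaving out any 1 of the 6 libraries of 6 h, or NXP800 24 h replicate 2, ended its 6 h call (adjusted p of 0.0544 to 0.140), as did 3 other alternatives. FANCI held 91.3, 99.6 and 100.1 CPM with DMSO and 83.1, 87.7 and 90.8 with NXP800 at 6 h, and 82.3, 88.2 and 83.4 and 42.0, 49.9 and 47.5 at 24 h. Its groups did not overlap, yet the 6 h value of -0.15 ± 0.069 was not called (adjusted p = 0.0714). It passed with the replicate block (adjusted p = 0.0101), without DMSO 6 h replicate 1 (0.0463) and without NXP800 24 h replicate 1 (0.0450). At 24 h the log2 fold change was -0.87 ± 0.071 (adjusted p = 4.01e-08), and the difference was -0.71 ± 0.099 (adjusted p = 8.57e-05).

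UBE2T (chr1:202331657-202341936), which hands ubiquitin to the pair, was the second most abundant of the 41 genes per length, at 81.0 CPM per kilobase in DMSO 6 h behind PARP1 at 103.6. It held 69.6, 75.6 and 68.2 CPM with DMSO and 49.1, 48.1 and 46.3 with NXP800 at 6 h, and 53.2, 63.5 and 58.1 and 25.9, 28.7 and 28.7 at 24 h. It fell without overlap at both times, by -0.57 ± 0.074 (adjusted p = 7.45e-06) and -1.07 ± 0.076 (adjusted p = 7.83e-09) on the log2 scale, and the difference was -0.49 ± 0.11 (adjusted p = 0.00272). FANCL (chr2:58159243-58241380), the ubiquitin ligase of the core complex, held 21.1, 23.3 and 22.6 CPM with DMSO and 16.8, 13.4 and 16.1 with NXP800 at 6 h, and 12.7, 13.0 and 14.01 and 9.28, 11.8 and 13.3 at 24 h. It was apart at 6 h (log2 fold change -0.54 ± 0.12, adjusted p = 0.00102) and overlapped at 24 h (-0.21 ± 0.12, adjusted p = 0.161, or -0.33 with 0.0348 without NXP800 24 h replicate 3, and -0.075 with 0.600 without NXP800 24 h replicate 1). The difference was 0.33 ± 0.17 (adjusted p = 0.164, or 0.0345 without NXP800 24 h replicate 1), and 27.3% of its exon bases lie opposite VRK2.

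FANCG (chr9:35073839-35079942), FANCA and FANCE are subunits of the core complex. FANCG held 50.9, 53.9 and 57.8 CPM with DMSO and 37.2, 36.99 and 42.0 with NXP800 at 6 h, and 59.6, 68.7 and 61.0 and 27.5, 28.3 and 32.9 at 24 h. It was lower in every NXP800 library, with -0.48 ± 0.085 (adjusted p = 0.000158) and -1.09 ± 0.086 (adjusted p = 2.58e-08) and a difference of -0.61 ± 0.12 (adjusted p = 0.00159). FANCA (chr16:89737549-89816647) held 53.2, 48.3 and 60.9 CPM with DMSO and 51.3, 44.6 and 54.4 with NXP800 at 6 h, and 53.0, 76.0 and 54.1 and 31.7, 44.4 and 35.3 at 24 h. DMSO 24 h replicate 2 stood above its fellows, and the groups overlapped at 6 h but not at 24 h. The log2 fold change was -0.11 ± 0.14 (adjusted p = 0.519) and -0.72 ± 0.14 (adjusted p = 0.000393). The difference of -0.60 ± 0.20 (adjusted p = 0.0330) was no longer called without DMSO 6 h replicate 1 or 2, NXP800 6 h replicate 1 or 3, DMSO 24 h replicate 2 or NXP800 24 h replicate 1 or 3 (adjusted p of 0.0642 to 0.0945), or with library size only (0.0928). Exons of ZNF276 lie opposite 27.4% of its exon bases. FANCE (chr6:35452338-35467102) held 27.6, 26.3 and 27.4 CPM with DMSO and 29.0, 29.5 and 27.5 with NXP800 at 6 h, and 27.3, 29.7 and 26.0 and 20.8, 19.97 and 19.5 at 24 h. It overlapped at 6 h (0.079 ± 0.072, adjusted p = 0.371) and was lower at 24 h (-0.46 ± 0.073, adjusted p = 5.33e-05), a difference of -0.54 ± 0.10 (adjusted p = 0.00117).

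FANCM (chr14:45135930-45200890), the motor that anchors the core complex on DNA, held 19.5, 19.7 and 20.2 CPM with DMSO and 13.5, 12.6 and 12.3 with NXP800 at 6 h, and 19.3, 19.0 and 18.3 and 10.7, 11.6 and 10.2 at 24 h. It was already low at 6 h, with log2 fold changes of -0.63 ± 0.081 (adjusted p = 7.19e-06) and -0.80 ± 0.082 (adjusted p = 5.83e-07) that differed by -0.17 ± 0.12 (adjusted p = 0.321). FANCF (chr11:22622533-22625823), an adaptor of the same complex, was the exception of the group. It held 7.73, 9.33 and 8.72 CPM with DMSO and 9.92, 10.4 and 11.0 with NXP800 at 6 h, and 7.16, 7.36 and 6.70 and 12.1, 10.9 and 11.2 at 24 h. Its NXP800 libraries were above the controls at both times, by 0.28 ± 0.10 (adjusted p = 0.0267) and 0.69 ± 0.10 (adjusted p = 2.81e-05) on the log2 scale, a rise of 60.8% at 24 h. The 6 h call was lost without DMSO 6 h replicate 1 or 3 or NXP800 6 h replicate 2 or 3 (adjusted p of 0.0511 to 0.135) and with no filter on low counts (0.0767). The difference of 0.40 ± 0.14 (adjusted p = 0.0467) was lost without any 1 of 10 libraries, all but DMSO 6 h replicate 1 and NXP800 24 h replicate 2 (adjusted p of 0.0508 to 0.123), and under 3 other alternatives.

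FANCB and FANCC, also of the core complex, fell at 24 h by -0.57 (adjusted p = 0.00133) and -0.37 (adjusted p = 0.00133) on the log2 scale, to means of 2.68 ± 0.21 and 13.0 ± 0.084 CPM from 3.99 ± 0.24 and 16.8 ± 1.2 (SD, n = 3). With the replicate block their differences of the responses passed as well, at -0.45 (adjusted p = 0.0357) for FANCB and -0.31 (adjusted p = 0.0235) for FANCC.

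MSH6 and PMS2 (chr7:5970925-6009106), the mismatch repair genes, were both lower at 6 h, and 1 of them at 24 h. MSH6 (chr2:47783145-47810101), a subunit of the heterodimer that finds mismatches, held 213, 214 and 205 CPM with DMSO and 133, 142 and 134 with NXP800 at 6 h, and 197, 187 and 205 and 139, 134 and 135 at 24 h. NXP800 libraries were lower without overlap at both times and nearly level with each other, with log2 fold changes of -0.63 ± 0.057 (adjusted p = 1.69e-07) and -0.53 ± 0.057 (adjusted p = 8.26e-07) and a difference of 0.097 ± 0.080 (adjusted p = 0.411). FBXO11 lies opposite 12.4% of its exon bases. PMS2, part of the nuclease that nicks the faulty strand, held 15.3, 16.7 and 16.8 CPM with DMSO and 9.46, 11.7 and 12.7 with NXP800 at 6 h, and 17.7, 16.2 and 15.7 and 17.9, 16.6 and 18.4 at 24 h. It was lower at 6 h, and the groups overlapped at 24 h, with -0.53 ± 0.10 (adjusted p = 0.000461) and 0.091 ± 0.10 (adjusted p = 0.465) and a difference of 0.62 ± 0.15 (adjusted p = 0.00530). Its values are uncertain, because the tables also list 8 entries of near copies (PMS2CL and PMS2P genes) that together held 561 to 783 counts per library.

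Of the 5 checkpoint genes 4 were tested, with 1 (25%) lower at 6 h and 2 (50%) at 24 h. Of all tested genes 27.8% were lower at 6 h, so the 6 h count was near that share, and 28.6% were lower at 24 h. CHEK1 (chr11:125625136-125681124), the kinase that ATR activates at stalled forks, held 55.1, 55.2 and 52.4 CPM with DMSO and 52.2, 52.0 and 50.9 with NXP800 at 6 h, and 44.7, 45.0 and 43.9 and 26.3, 26.6 and 25.4 at 24 h. Its replicates lay close together, so that even at 6 h the groups were apart, by -0.070 ± 0.057 (adjusted p = 0.321), a value that did not pass. At 24 h it was lower by 41.3% (log2 fold change -0.77 ± 0.059, adjusted p = 1.93e-08), and the difference was -0.70 ± 0.082 (adjusted p = 1.78e-05). Another gene model lies opposite 18.2% of its exon bases. CHEK2 (chr22:28687742-28741834), which ATM activates at breaks, was low, with 7.76, 7.00 and 6.38 CPM with DMSO and 3.78, 4.65 and 4.24 with NXP800 at 6 h, and 4.12, 6.62 and 5.56 and 2.41, 2.38 and 3.16 at 24 h. The groups were apart at both times, with -0.74 ± 0.17 (adjusted p = 0.00137) and -1.03 ± 0.18 (adjusted p = 0.000119) and a difference of -0.30 ± 0.24 (adjusted p = 0.406). ATM and ATR themselves were not called, with log2 fold changes at 24 h of 0.12 (adjusted p = 0.520) and -0.076 (adjusted p = 0.412), although ATR passed at 6 h with the replicate block (-0.14, adjusted p = 0.0386). ATRIP, the partner of ATR, was not tested, having 1 to 9 counts in a library, and 31.6% of its exon bases are shared with TREX1 on the same strand. The joint entry ATRIP-TREX1 held 2 to 9 counts in a library, and TREX1 itself held 0. The level of ATRIP is thus uncertain, and whether reads on shared exons went uncounted was not tested.

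All 3 genes of break ligation and alternative end joining were lower at 24 h, beside 28.6% of all tested genes. PARP1 (chr1:226360691-226408093), the enzyme that marks breaks with poly(ADP-ribose), was also the most abundant of the 41 per length, with 418, 412 and 406 CPM with DMSO and 227, 255 and 257 with NXP800 at 6 h, and 399, 346 and 384 and 176, 161 and 189.9 at 24 h. Its groups were apart, and it fell by 40.3% at 6 h (log2 fold change -0.74 ± 0.075, adjusted p = 5.61e-07) and fell by 53.3% at 24 h (-1.10 ± 0.075, adjusted p = 5.46e-09). The difference of -0.36 ± 0.11 (adjusted p = 0.0209) was lost without NXP800 6 h replicate 2 (0.0534) or 3 (0.0517) or DMSO 24 h replicate 1 (0.0516). POLQ (chr3:121431431-121545988), the polymerase of theta-mediated end joining, held 37.8, 39.2 and 38.8 CPM with DMSO and 23.7, 26.6 and 26.0 with NXP800 at 6 h, and 26.6, 26.7 and 31.7 and 12.2, 14.8 and 13.2 at 24 h. It was lower in every NXP800 library, by -0.60 ± 0.087 (adjusted p = 2.60e-05) and -1.08 ± 0.092 (adjusted p = 6.13e-08) on the log2 scale, with a difference of -0.48 ± 0.13 (adjusted p = 0.0106). XRCC1 (chr19:43543311-43575527), the scaffold that PARP1 recruits to single-strand breaks, held 34.6, 38.9 and 35.9 CPM with DMSO and 45.1, 40.9 and 39.9 with NXP800 at 6 h, and 33.9, 36.5 and 39.7 and 27.5, 27.8 and 33.6 at 24 h. NXP800 values were above the controls at 6 h and below them at 24 h. At 6 h the log2 fold change of 0.20 ± 0.088 was not called (adjusted p = 0.0633), while it passed with the replicate block (0.00901), without DMSO 6 h replicate 2 (0.0492), without NXP800 24 h replicate 2 (0.0331) or 3 (0.0333) and under 3 other alternatives. At 24 h it was -0.31 ± 0.090 (adjusted p = 0.00799, or 0.0585 without NXP800 24 h replicate 2), and the difference was -0.51 ± 0.13 (adjusted p = 0.00717). On the same strand 10.9% of its exon bases overlap another gene's exons, and 11.8% do so on the opposite strand.

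**Figure D3:**
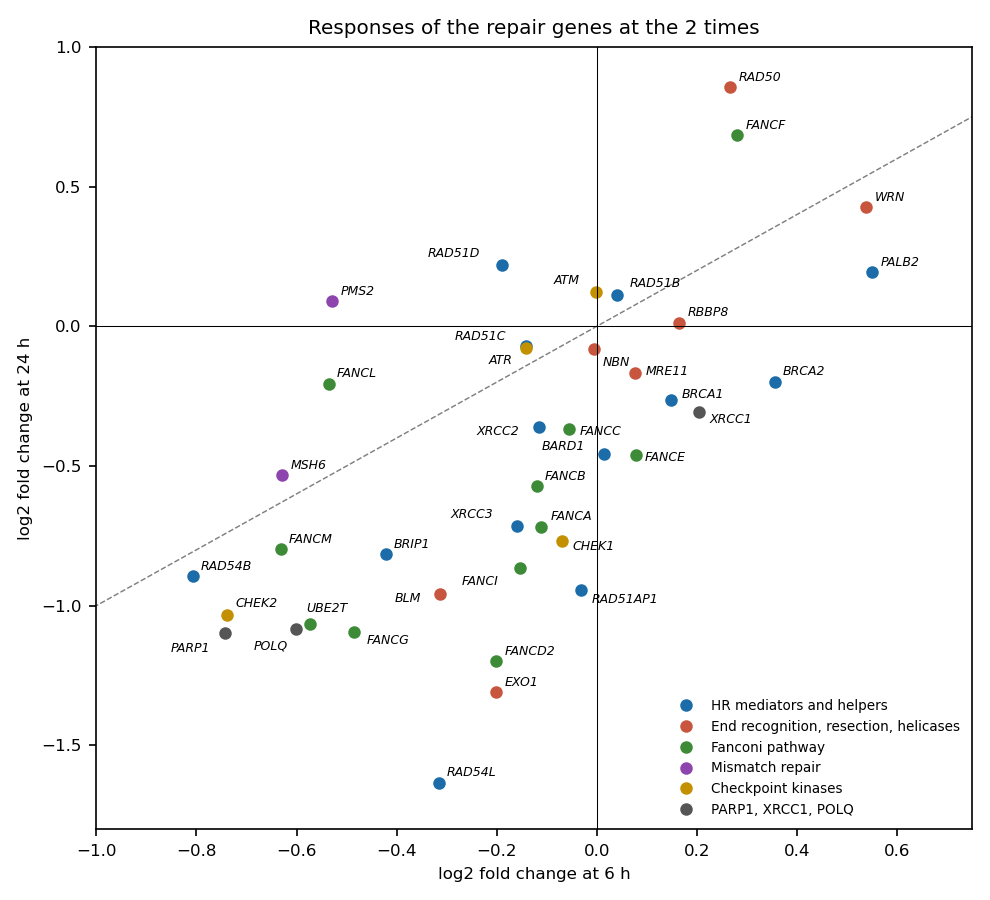
Log2 fold change at 24 h (y axis) against that at 6 h (x axis) for the 40 tested repair genes, coloured by role, with a dashed line where both are equal. Genes below the dashed line, such as RAD54L at -0.32 and -1.63, responded lower at 24 h. Of the 10 genes above it, RAD50, FANCF and PMS2 were called in the difference of the responses.

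Other repair and cell cycle lists were counted in the same fit. There 27.8% of all tested genes were lower and 25% higher at 6 h, and 28.6% lower and 27.5% higher at 24 h. With library size only, the median log2 fold change of all tested genes at 24 h was 0.086, beside -0.0033 with TMM. The shares of all tested genes called with library size only or with the replicate block are not given here. List counts under those settings thus have no background of their own. Of 42 tested other genes of recombination and the Fanconi pathway, 8 (19.05%) were lower and 11 (26.2%) higher at 6 h. At 24 h 17 (40.5%) were lower and 5 (11.9%) higher, with a median of -0.13. These 24 h counts were 16 and 11 with library size only, and 20 and 9 with the replicate block. In this list at 24 h RECQL4, a helicase related to BLM and WRN, fell from 94.2 ± 15.8 to 32.3 ± 2.3 CPM (SD, n = 3, log2 fold change -1.54). BABAM2, a subunit of the BRCA1-A complex, rose from 31.5 ± 2.3 to 62.2 ± 4.2 CPM (0.98). Among 15 genes of non-homologous end joining, which rejoins ends without a template, 4 (26.7%) were lower and 5 (33.3%) higher at 24 h, or 2 and 7 with library size only, with PAXX at -0.64 and DCLRE1C, the gene of the Artemis nuclease, at 0.66. Of 19 base excision repair genes 8 were lower and 1 higher at 24 h (5 and 3 with library size only), among them LIG1, the ligase of replication, at -1.79 and SMUG1, a uracil glycosylase, at 0.33. Of 17 nucleotide excision repair genes 4 (23.5%) were lower and 3 (17.6%) higher at 24 h, or 8 and 5 with the replicate block and 1 and 6 with library size only, among them DDB2 at -1.59 and XPC at 0.79, which both find damage across the genome. Among the other mismatch repair genes, MSH3, the partner in the second mismatch-finding heterodimer, stood at -0.30 and PMS1 at 0.41. Of 19 further checkpoint signalling genes 14 were lower and 1 higher at 24 h, with CDC25C, the phosphatase that starts mitosis, at -1.12 and RAD17, the clamp loader, at 0.20. Among these repair and checkpoint lists, the shares lower at 24 h ran from 23.5% of the nucleotide excision genes to 73.7% of these checkpoint genes, as the bars of the plot of shares by list show.

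**Figure D4:**
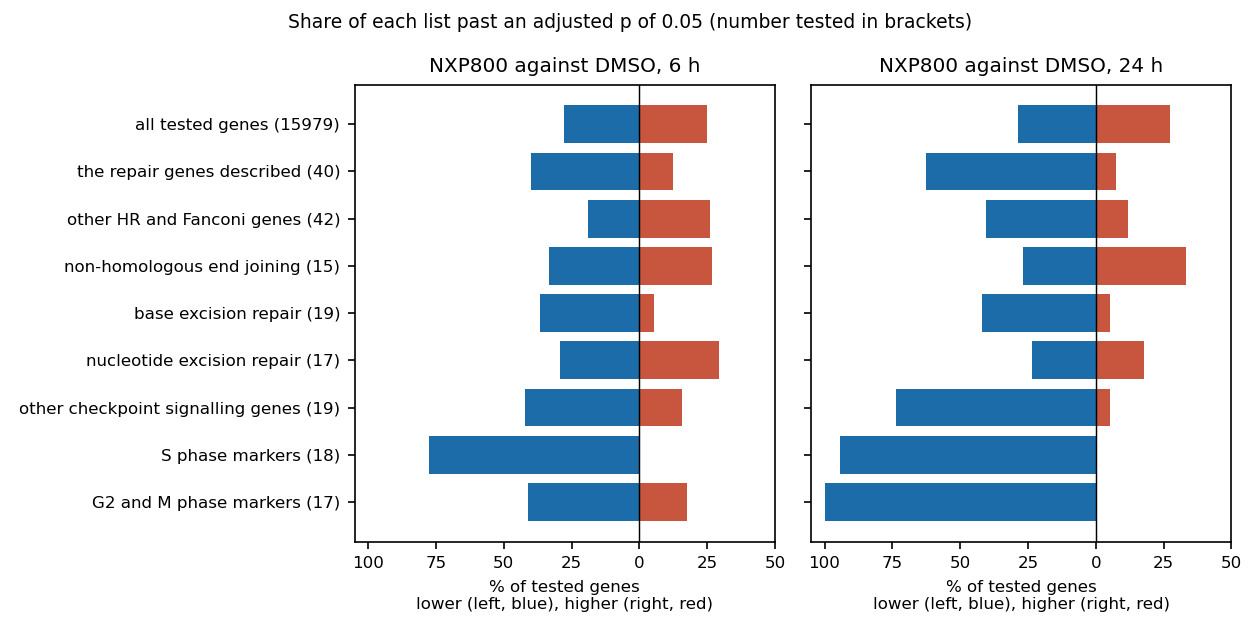
Share of the tested genes of each list (bars, % of genes, number tested in brackets) that were lower (left, blue) or higher (right, red) at an adjusted p below 0.05, at 6 h and at 24 h. The repair genes described were lower for 62.5% at 24 h, against 28.6% of all tested genes, 94.4% of S phase markers, and every G2 and M phase marker tested was lower.

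Markers of cycling cells fell beside the repair genes. Of all tested genes 27.8% were lower and 25% higher at 6 h, and 28.6% lower and 27.5% higher at 24 h. Of 18 S phase markers 14 (77.8%) were lower and 0 higher at 6 h. At 24 h 17 (94.4%) were lower and 0 higher, and the medians at the 2 times were -0.52 and -0.84. TYMS, thymidylate synthase, fell from 645 ± 27 to 176 ± 13 CPM at 24 h (SD, n = 3). Summed, they held 4412 to 4571 CPM in DMSO 6 h, 3304 to 3422 in NXP800 6 h, 4513 to 4736 in DMSO 24 h and 2398 to 2617 in NXP800 24 h. Of 17 G2 and M phase markers 7 (41.2%) were lower and 3 (17.65%) higher at 6 h. All 17 tested were lower at 24 h, and the medians were -0.15 and -1.27. MKI67, a marker of proliferating cells, fell from 443 ± 17 to 133 ± 15 CPM at 24 h. Their sums were 3146 to 3376 and 2803 to 3097 CPM at 6 h, and 3757 to 3837 and 1533 to 1763 CPM at 24 h. The part of these cell cycle markers in the response of the repair genes was not tested.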

How the data were processed

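RNA of 12 MNNG/HOS libraries, in 4 groups of 3, was analysed from the deposited counts. Per the labels and the methods, the authors trimmed reads with fastp 0.20.1, aligned them with STAR 2.7.5a to hg38 (GRCh38.p14) and counted them per RefSeq gene with HTSeq 0.12.4. The deposited values are raw counts without normalization. The strand setting and the rule for reads on overlapping genes are not given in the sources used here, so overlaps of exons (GENCODE v44) of over 10% of a gene's exon bases on one strand are stated beside the genes given in full. Counter entries that name no gene were left out (ambiguous reads were 2.10 to 2.43%).

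In R 4.3.3, edgeR 4.0.16 (with limma 3.58.1) was run on counts of all 12 libraries in one model of the 4 groups, with TMM scaling, and filterByExpr kept 15979 of 43236 genes. The common dispersion was 0.007231. Contrasts were NXP800 against DMSO at 6 h, at 24 h, and their difference, called at a Benjamini-Hochberg adjusted p below 0.05 over all tested genes. No sum or list was given a test. No replicates agreed within sampling noise, since chi-square divided by its degrees of freedom lay between 7.36 and 26.4 for genes with 20 or more counts in a pair.

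Libraries that share a replicate number deviated together. Once group means were taken out, the correlation over genes between DMSO and NXP800 libraries was 0.160 to 0.329 for one number and at most 0.0580 otherwise, so the numbers pair the libraries. The labels' numbers are the only source of this pairing, and the fit with the number as a block, within each time, is printed where it changed a call.

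Other settings tried were scaling by DESeq2's size factors or by library size alone, keeping all genes, each time point fitted alone, the replicate block, the Wald test of DESeq2 1.42.0, an adjusted p below 0.01 and each library left out. Members and lists were chosen with earlier results of these data known. Values in every library are given for 29 members: in each role group the 3 called genes of greatest absolute log2 fold change at each time, every gene called in the difference, every gene called in opposite directions, and every gene that rose. Of each other list, the called gene of greatest change at 24 h in each direction may be named. Promoter sequences are from the RefSeq table (GRCh38.p14), and lengths for CPM per kilobase are those of GENCODE canonical transcripts. Some items are not reported here.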

Additional observations from a re-analysis of the deposited data

Results flagged for a closer look

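The response to NXP800 differed between 6 h and 24 h for 21 of the 40 tested genes, by edgeR's quasi-likelihood test of the difference with Benjamini-Hochberg adjustment over all tested genes, and these are listed because their effects under the same contrast were not the same at both times. All values are the log2 fold change at 24 h minus that at 6 h. Among recombination mediators the difference was -0.41 for BRCA1, -0.55 for BRCA2, -0.47 for BARD1, -0.91 for RAD51AP1, -0.56 for XRCC3 and -1.32 for RAD54L. In resection and unwinding it was 0.59 for RAD50, -1.11 for EXO1 and -0.65 for BLM. In the Fanconi pathway it was -0.60 for FANCA, -0.54 for FANCE, 0.40 for FANCF, -0.61 for FANCG, -0.49 for UBE2T, -0.999 for FANCD2 and -0.71 for FANCI. It was 0.62 for PMS2, -0.70 for CHEK1, -0.48 for POLQ, -0.36 for PARP1 and -0.51 for XRCC1. The calls for FANCA, FANCF and PARP1 were lost without some single libraries, as given beside each of them above. Of the 12 libraries, these were any 1 of 7 for FANCA, of 10 for FANCF and of 3 for PARP1. With the replicate block and all libraries FANCA, FANCF and PARP1 stayed called, at an adjusted p of 5.64e-06, 0.0138 and 0.00104.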

How the results depend on the processing

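Over the alternatives, the number of repair genes called stayed within 1.5 times its main value, and leaving out 1 library gave 17 to 22 genes at 6 h, 27 to 31 at 24 h and 19 to 22 in the difference. The replicate block gave 27, 32 and 27, and no call was lost with it. The share of all tested genes called with the block is not given here. These larger counts therefore do not show a gain particular to the repair genes. Among the 29 genes given in full, 473 of their alternative values at 6 h kept direction and call, 33 lost the call, 12 gained one and 4 changed sign. At 24 h these numbers were 514, 2, 6 and 0, and in the difference 462, 24, 7 and 0. The sign changed only for values that were not called, namely BARD1 at 6 h (-0.032 without DMSO 6 h replicate 1 and -0.057 without NXP800 6 h replicate 2, of -0.057 to 0.075 with 1 library left out) and RAD51AP1 at 6 h (0.0020 with the libraries of one time point only and 0.00032 without NXP800 24 h replicate 2, of -0.062 to 0.00032 with 1 library left out). In the other lists, nucleotide excision repair at 24 h rose from 7 called genes to 13 with the replicate block, and the other mismatch repair genes at 6 h went from 1 to 0 with no filter on low counts. The cause was not tested. ATRIP, with 1 to 9 counts in a library, was not tested.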
